A study of Mus musculus with 19 samples.

Results

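Chromosome 1 (Chr1) was profiled through every non-control probe that the array design placed on it, in build NCBI37 (mm9). After spots of the same probe were averaged, 16225 of the 234018 probed positions of the array lay on Chr1, that is 7.33% of the 221455 on the autosomes. They ran from chr1:3002738 to 197188286, with a median spacing of 8392 bp. The part below 100 Mb is called proximal and held 8022 probes, and the part from 100 Mb on is called distal and held 8203.

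The samples were 4 hepatocellular adenomas (HCA) and 6 hepatocellular carcinomas (HCC) of 9 mice, and an unaffected liver of each mouse, compared by aCGH on 1 array per sample. The method hybridises sample and control DNA, each with its own dye, to the same probes. The log2 ratio of both signals, the aCGH ratio, follows DNA copy number. Controls were livers of the opposite sex. All mice, and the control livers, had a mixed strain background that includes C57BL/6, and all mice carried Mad2(f/f), a floxed Mad2l1 gene, with Albumin-Cre, which recombines floxed alleles in hepatocytes and leaves them intact in the vessels and immune cells of the liver. The HCAs and the livers of the same mice came from 4 females aged 12 to 16.9 months, 2 of them p53(f/f) and 2 of them p53(f/+). The HCCs and their livers came from 5 mice aged 12.3 to 16.2 months labelled p53ser246+, a Trp53 point mutant, and 3 of these HCCs came from females and 3 from males. Mouse 6240 gave 2 of the HCCs, which the labels number 4 and 2. HCA and HCC shared no Trp53 genotype, so tumor type and genotype cannot be told apart. Nothing in the labels says what share of a tumor sample was tumor cells, so an extra copy in a subset of cells and contamination with normal cells cannot be told apart.

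Mad2l1 is a component of the spindle assembly checkpoint, which delays anaphase until all chromosomes are attached to the spindle. Cells without it missegregate whole chromosomes. Gain of the long arm of chromosome 1 is among the most frequent changes of human HCC. The counterparts of that arm lie mostly in the distal part of mouse Chr1, together with Mdm4, an inhibitor of p53, and the mitotic genes Nuf2, Nek2, Kif14 and Aspm. The proximal part holds, among others, Cps1, the first enzyme of the urea cycle, and Bard1, the partner of Brca1. A gain of the whole chromosome raises both parts, and a gain restricted to the human counterpart would leave the proximal part behind. Probes carry no gene names in the deposited arrays, so genes are named here as landmarks only, without values.

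A pair of arrays stood apart before any comparison, both of mouse 6240. Its unaffected liver had the highest probe noise, the spread between neighbouring Chr1 probes, 0.41 on the log2 scale against 0.18 to 0.33 in the other 18 arrays, and the highest Chr1 ratio of the livers. Tumor 2 had an X chromosome ratio of 0.32, while the absolute X ratio of the other arrays lay between 0.73 and 1.07. The sign of the X ratio matched the labelled sex in all 19 samples. On every array at least 98.6% of the Chr1 spots were well above background in both channels.

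Chr1 was higher in HCA than in unaffected liver, most of all in 1 adenoma, and HCCs ranged from −0.05, below all 9 livers, to 0.30. The aCGH ratio of Chr1 was 0.52 in the HCA of mouse 2430, 0.14 in that of mouse 5884, 0.13 in that of mouse 5901 and 0.15 in that of mouse 6199. The HCA of mouse 2430 thus stood far above the other 3, which lay within 0.02 of each other. Set against an autosomal median of 2 copies, a ratio of 0.52 corresponds to 2.87 copies per cell on average and the other 3 HCAs to 2.19 to 2.22 copies. An extra copy in every cell would then give a log2 ratio of 0.58. Such copy numbers assume cells with 2 copies of most autosomes and a ratio that follows copy number in full, and neither was measured. The X ratio of the HCA of mouse 2430, ideally 1 for a female against a male control, was 0.78. In HCC, Chr1 ratios were 0.30 in tumor 4 and −0.05 in tumor 2 of mouse 6240, 0.06 in mouse 6487, 0.24 in mouse 6565, 0.29 in mouse 6602 and 0.14 in mouse 6642. These correspond to 1.93 to 2.47 copies. The HCCs were spread over the range with no gap as wide as that in HCA, and 1 of the 6 lay below 0. On that array, of tumor 2 of mouse 6240, most other autosomes were below 0 as well, with Chr14 and Chr19 at −0.06. Chr18 was at 0.70 and Chr6 at 0.35.

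Unaffected livers stayed close to 0. Their Chr1 ratios were 0.01, −0.00045, 0.02 and −0.01 in the HCA-bearing mice 2430, 5884, 5901 and 6199. In the HCC-bearing mice 6240, 6487, 6565, 6602 and 6642 they were 0.17, 0.03, 0.05, 0.06 and 0.06. The 5 livers of p53ser246+ mice were thus all above the 4 livers of mice with floxed Trp53, a difference given here as a description. Genotype was not separated from scan day or sex in it. The 3 livers of the first scan day were all floxed, and the 4 of the last day all p53ser246+. All floxed livers were female, and 3 of the p53ser246+ livers were male. Apart from mouse 6240, whose liver was above the HCAs of mice 5884, 5901 and 6199, no liver reached the lowest HCA.

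**Figure D1:**
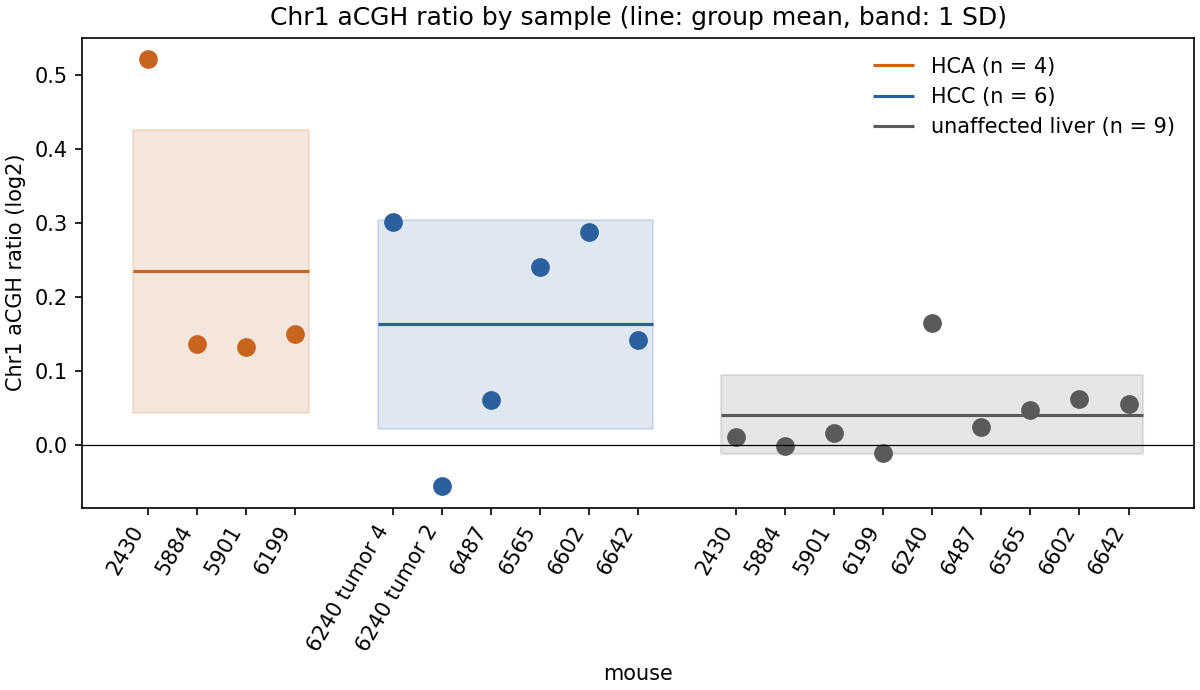
The mean log2 aCGH ratio of all Chr1 probes (vertical axis) is plotted for each of the 19 samples, named by mouse on the horizontal axis, with the group mean as a line and 1 SD as a band. The HCA of mouse 2430 lies at 0.52, the other HCAs at 0.13 to 0.15, the HCCs between −0.05 and 0.30, and the liver of mouse 6240 at 0.17 above the other 8 livers, which end at 0.06.

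In HCA the Chr1 ratio averaged 0.24 ± 0.19 (SD, n = 4) and in liver 0.04 ± 0.05 (SD, n = 9). The difference of 0.19 had a 95% interval from 0.06 to 0.33, and an exact two-sided permutation test gave an adjusted p of 0.0106 over the 19 autosomes. Of these autosomes, 42.1% were called higher in HCA (adjusted p under 0.05), so that Chr1 was 1 of 8. The size of the difference rested on the HCA of mouse 2430, without which it was 0.098 (adjusted p = 0.0314, exact permutation test). With normexp background correction the difference was 0.14 and no longer passed (adjusted p = 0.0554, exact permutation test).

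The HCC ratio averaged 0.16 ± 0.14 (SD, n = 6). It exceeded liver by 0.12, with a 95% interval from 0.01 to 0.23, which did not pass after adjustment (p = 0.0348, adjusted p = 0.0944, exact two-sided permutation test). In this comparison 10.5% of the autosomes were called higher and Chr1 was not among them. This result turned on single samples. It passed without tumor 2 of mouse 6240 (0.17, adjusted p = 0.0111), without the liver of mouse 6240 (0.14, adjusted p = 0.0427), without the HCC of mouse 6487 (0.14, adjusted p = 0.0475), and with both HCCs of mouse 6240 averaged (0.13, adjusted p = 0.019), each by the exact permutation test. Without the liver and both HCCs of mouse 6240, a setting chosen after seeing the data, the difference was 0.16 (adjusted p = 0.0256, exact permutation test). The livers set against HCA and HCC pool floxed and p53ser246+ mice, of which the floxed were lower, while all HCCs were p53ser246+ and all HCAs floxed. Against own liver, the mean difference over mice was 0.10 for HCC and 0.23 for HCA.

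HCC and HCA were not separated by Chr1. Their means differed by −0.07, HCC minus HCA, with a 95% interval from −0.33 to 0.16 (adjusted p = 0.759, exact two-sided permutation test, 5.26% of autosomes called higher). The interval is wide enough to hold a difference as large as the gain itself. Without the HCA of mouse 2430 the difference was 0.02 (adjusted p = 0.98, exact permutation test).

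Each tumor was also set against the liver of its own mouse, which removes what the animal shares across tissues. In HCA, Chr1 exceeded own liver by 0.51 in mouse 2430, 0.14 in mouse 5884, 0.12 in mouse 5901 and 0.16 in mouse 6199. In HCC the difference was 0.14 for tumor 4 and −0.22 for tumor 2 of mouse 6240, 0.04 in mouse 6487, 0.19 in mouse 6565, 0.22 in mouse 6602 and 0.09 in mouse 6642. Thus 9 of the 10 tumors were above their own liver, and tumor 2 of mouse 6240 was the exception. Both tumors of that mouse were read against the liver that stood apart. Whether its liver and tumor 2 (X ratios of 1.04 and 0.32) were exchanged or mixed was not tested, and the labels do not settle it, so the −0.22 and the count of 9 hold for the samples as labelled. Without mouse 6240, 8 of 8 tumors were above their own liver. The 2 tumors themselves differed by 0.36, tumor 4 being higher.

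The mean difference from own liver over mice was 0.23 ± 0.19 (SD, n = 4) for HCA. For HCC it was 0.10 ± 0.11 (SD, n = 5). Exact sign flips over mice, added after seeing the data, gave p = 0.125 in HCA, the smallest that 4 mice allow (higher in 4 of 4), and p = 0.188 in HCC (higher in 4 of 5). In a limma fit over all autosomes with the mouse as a replicate block, adjusted p was 0.0359 for HCA and 0.409 for HCC. By day of scanning, HCA minus liver was 0.32 on the first day (2 HCAs, 3 livers) and 0.13 on the second (2 HCAs, 2 livers). HCC minus liver was 0.05 on the second day (1 HCC, 2 livers) and 0.10 on the last (5 HCCs, 4 livers). Within a single day the groups are too small for HCA to reach 0.05 in an exact permutation test, and on the last day HCC gave p = 0.23 in that test. Over all days, the exact permutation within scan days gave 0.24 for HCA (adjusted p = 0.0288) and 0.09 for HCC (adjusted p = 0.279). Limma with the scan day as a block gave 0.23 for HCA (adjusted p = 0.0126) and 0.10 for HCC (adjusted p = 0.228).

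Within a tumor, Chr1 was seldom the most gained autosome. It ranked first of the 19 autosomes in the HCA of mouse 2430 and in the HCC of mouse 6565, at place 2 in tumor 4 of mouse 6240 and at place 3 in mouse 6602. In the HCC of mouse 6565 the next autosome, Chr14, had a ratio of 0.14 against 0.24 for Chr1. Against own liver, Chr1 again ranked first in both of these tumors and last, at place 19, in tumor 2 of mouse 6240. By its own ratio Chr1 was at place 17 in that tumor and at place 2 in the liver of that mouse. Chr1 also ranked at places 1, 2 and 3 in the livers of mice 6602, 6565 and 2430, at ratios of only 0.06, 0.05 and 0.01. In the livers of mice 5884, 5901, 6199, 6487 and 6642 it was at places 6 to 14. A ratio past 0.3, the level above which whole-chromosome gains are counted in this study, was reached by 2 of the 10 tumors, the HCA of mouse 2430 and tumor 4 of mouse 6240, and against own liver by the HCA of mouse 2430 alone.

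Genotype, sex and age are given as values, since each class holds few tumors. The HCAs of the p53(f/f) mice 2430 and 6199 had Chr1 ratios of 0.52 and 0.15, and those of the p53(f/+) mice 5884 and 5901 had 0.14 and 0.13. Among HCCs, the 3 from females spanned −0.05 to 0.30 and the 3 from males 0.06 to 0.24, so that their ranges overlapped. The oldest mouse, 2430 at 16.9 months, carried the HCA with the highest Chr1 ratio, and mouse 6240 at 16.2 months carried both the highest and the lowest of the HCCs.

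The higher ratio of HCA covered both parts of the chromosome. In the HCA of mouse 2430 the proximal part had a ratio of 0.52 and the distal part 0.52. In those of mice 5884, 5901 and 6199 the proximal ratios were 0.14, 0.13 and 0.15 and the distal ratios 0.14, 0.13 and 0.15. No HCA had one part without the other. In HCC the proximal and distal ratios were 0.30 and 0.30 in tumor 4 and −0.05 and −0.06 in tumor 2 of mouse 6240, and 0.06 and 0.07 in mouse 6487. They were 0.24 and 0.24 in mouse 6565, 0.28 and 0.29 in mouse 6602, and 0.16 and 0.13 in mouse 6642. The HCC of mouse 6642 had the widest gap of all 19 samples, 0.026, with the proximal part higher. In none of the 10 tumors did the distal part, with most of the counterparts of the human long arm, exceed the proximal part by more than in the HCC of mouse 6602, where the gap was 0.0113.

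**Figure D2:**
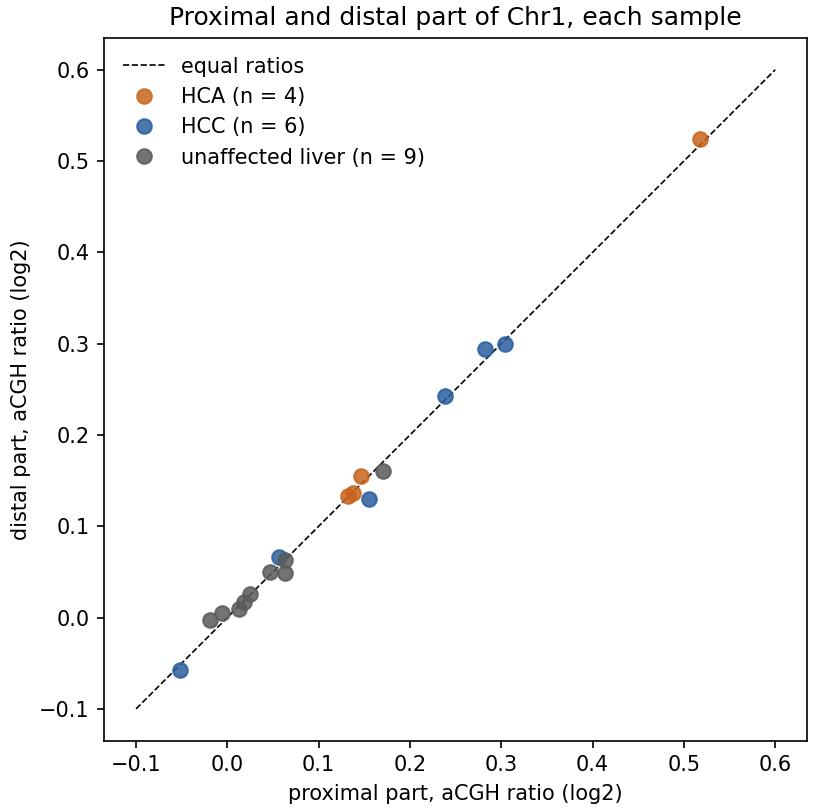
The mean log2 aCGH ratio of the distal part of Chr1 (vertical axis) is plotted against that of the proximal part (horizontal axis) for each sample, coloured by group, with the dashed line where both are equal. All 19 samples lie within 0.026 of the line, from the HCC tumor 2 of mouse 6240 at −0.05 to the HCA of mouse 2430 at 0.52.

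Distal minus proximal averaged 0.0039 ± 0.0044 (SD, n = 4) for HCA. It was −0.0017 ± 0.014 (SD, n = 6) for HCC and 5.2e-05 ± 0.0097 (SD, n = 9) for liver. HCA minus liver was 0.0039, with a 95% interval from −0.0075 to 0.015 (adjusted p = 0.733, exact two-sided permutation test). HCC minus liver was −0.0018, with an interval from −0.015 to 0.011 (adjusted p = 0.929, same test). HCC minus HCA was −0.0057, with an interval from −0.023 to 0.0095 (adjusted p = 0.741, same test). A difference between both parts was not detected in any of the 3 comparisons, and in HCA the interval ended at 0.015, well short of the 0.19 by which Chr1 exceeded liver. None of the 19 autosomes, split in the same way, was called in any of them (0%), so the test called no chromosome at this sample size. Without adjustment, p for Chr1 was 0.463, 0.77 and 0.51. The size of the difference in HCA ranked 13 among the 19 autosomes, where Chr6 had the largest at 0.071 and the median was 0.014.

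Either part alone gave nearly the value of the whole. HCA exceeded liver by 0.19 in the proximal part with a 95% interval from 0.06 to 0.33, and by 0.20 in the distal part with an interval from 0.07 to 0.33 (adjusted p = 0.0112 for each over 38 parts, exact permutation test). Of the 38 parts, 36.8% were called higher. HCC exceeded liver by 0.12 in the proximal and by 0.12 in the distal part (adjusted p = 0.0873 for each, exact permutation test). When own liver was subtracted, the distal and proximal parts of a tumor differed by at most 0.013. A stretch on both sides of 100 Mb partly cancels in this gap, as do the low bins of the HCC of mouse 6642 described below.

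The profile was next read in 20 bins of 10 Mb, each with 432 to 1110 probes. In the HCA of mouse 2430 the bins lay between 0.39 and 0.57, in mouse 5884 between 0.06 and 0.20, in mouse 5901 between 0.07 and 0.18, and in mouse 6199 between 0.05 and 0.22. Every bin of every HCA was therefore above 0. Among HCCs, bins ranged from 0.23 to 0.33 in tumor 4 of mouse 6240, from 0.18 to 0.26 in mouse 6565, from 0.18 to 0.34 in mouse 6602 and from 0.04 to 0.22 in mouse 6642, again all above 0. They ranged from −0.03 to 0.10 in mouse 6487. In tumor 2 of mouse 6240 all bins were below 0, from −0.12 to −0.02, and so were the ratios of most other autosomes of that array.

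**Figure D3:**
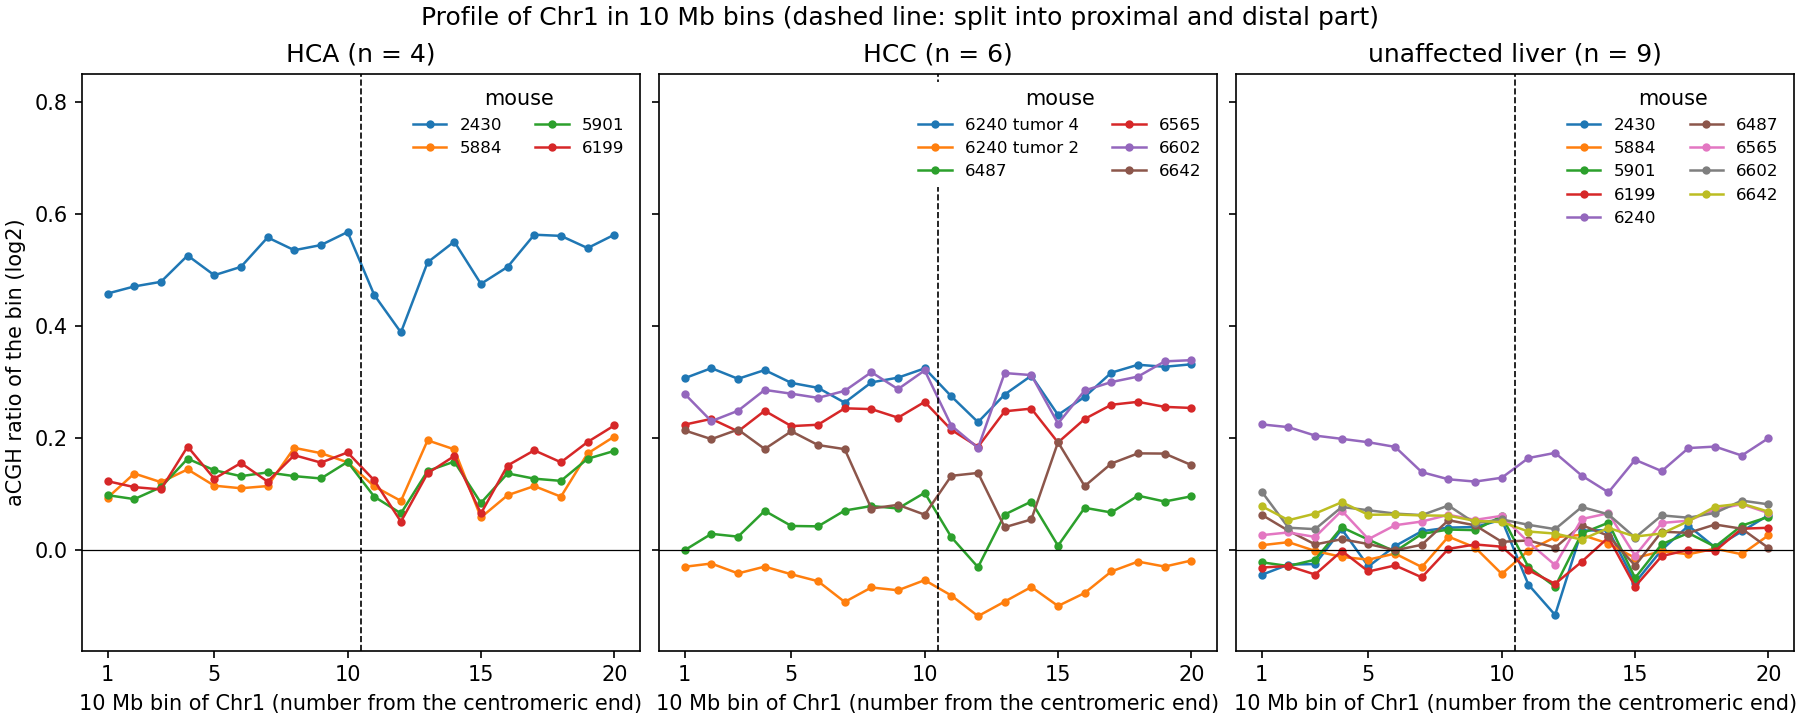
The mean log2 aCGH ratio of each of the 20 bins of 10 Mb (vertical axis) is plotted against the number of the bin from the centromeric end (horizontal axis), a line per sample and a panel per group, with a dashed line between proximal and distal part. The lines run level at different heights, the HCA of mouse 2430 between 0.39 and 0.57, and most dip at bins 11, 12 and 15, while the HCC of mouse 6642 dips at bins 8 to 10, 13 and 14.

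The levels within a sample were not perfectly flat, and the dips recurred in many arrays. The SD over the 20 bins was 0.03 to 0.05 in HCA, 0.02 to 0.06 in HCC and 0.02 to 0.05 in liver. The bin at 110 to 120 Mb, the one with the fewest probes, was the lowest in the HCA of mouse 2430 at 0.39 and in the liver of that mouse at −0.12. Across the 20 bins, which share array and chromosome and are not independent, tumor and own liver profiles correlated with r from 0.24 to 0.94 (median 0.64). The median r of a tumor with the 8 livers of other mice was −0.31 to 0.63, and the own liver was above it in 7 of the 10 tumors. Bins with more probes had higher ratios in 16 of the 19 samples, with correlations up to 0.84. The 3 exceptions were the livers of mice 5884 and 6240 (−0.11 and −0.31) and the HCC of mouse 6642 (−0.31). After the own liver was subtracted, the correlation with probe number was still positive in 7 of the 10 tumors and ran from −0.49 to 0.78, with 0.78 and 0.72 in tumors 2 and 4 of mouse 6240 and 0.76 in the HCC of mouse 6602. These correlations over bins are descriptions.

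The HCC of mouse 6642 had the most uneven profile. Its 5 bins at 70 to 100 Mb and 120 to 140 Mb lay between 0.04 and 0.08 and the other 15 bins between 0.11 and 0.22. The same 5 bins were the lowest in the liver of mouse 6240, at 0.10 to 0.13 against 0.14 to 0.22 in the others, and lay among the higher bins in the HCA of mouse 2430, at 0.51 to 0.57. In the liver of mouse 6642 itself they lay between 0.02 and 0.06, overlapping the other bins (0.02 to 0.09) and including the lowest bin of that liver, at 120 to 130 Mb. Minus own liver, the 5 bins of this HCC lay between 0.01 and 0.03 and its other 15 bins between 0.08 and 0.17. These 5 bins were chosen after their values were seen and are given as a description.

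After the own liver was subtracted, the SD over bins was 0.01 to 0.05 and the sign of the difference was the same in all bins of 9 of the 10 tumors. Bins of the HCA of mouse 2430 then lay between 0.48 and 0.56 with an SD of 0.02, and those of the HCC of mouse 6565 between 0.17 and 0.21 with an SD of 0.01. In mice 5884, 5901 and 6199 the HCA bins lay between 0.06 and 0.20, 0.09 and 0.13, and 0.11 and 0.19. The HCC of mouse 6642 had the largest SD, 0.05, with bins from 0.01 to 0.17. In 8 of the 10 tumors all 20 bins were above the own liver. The exceptions were the HCC of mouse 6487, with bins from −0.06 to 0.09, and tumor 2 of mouse 6240, with all bins from −0.29 to −0.17.

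**Figure D4:**
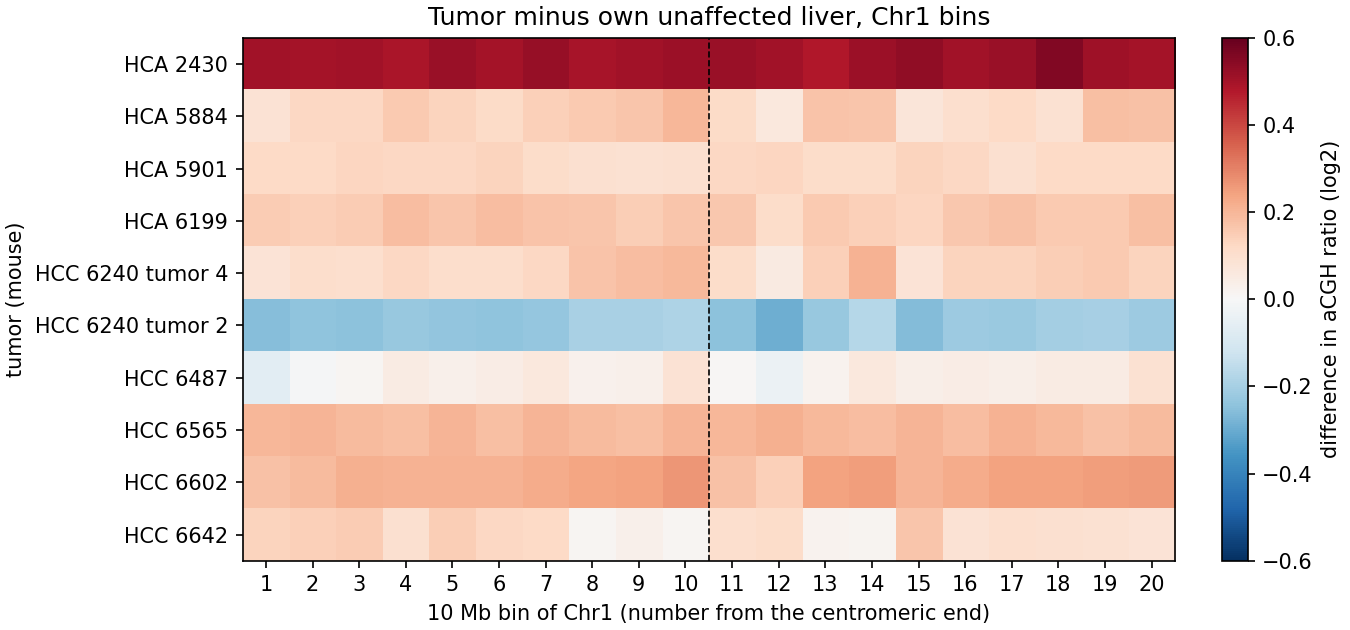
The difference in log2 aCGH ratio between a tumor and the unaffected liver of its mouse is shown in colour for each tumor (rows) and each 10 Mb bin of Chr1 (columns, numbered from the centromeric end), red where the tumor is higher and blue where it is lower, with a dashed line between both parts. The row of the HCC of mouse 6487 holds both colours, from −0.06 to 0.09, and the other rows 1 colour each, with the HCA of mouse 2430 at 0.48 to 0.56 and tumor 2 of mouse 6240 at −0.29 to −0.17.

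Tested bin by bin against liver, HCA was called higher in 18 of the 20 Chr1 bins (exact permutation test, adjusted over the 256 autosomal bins with at least 100 probes), where 34% of all autosomal bins were called higher. The differences ran from 0.15 to 0.22 and none was lower. The 2 bins that were not called were the first, at 0 to 10 Mb (difference 0.15, adjusted p = 0.0613), and that at 110 to 120 Mb (difference 0.15, adjusted p = 0.052). In 5 bins, at 70 to 100 Mb and 120 to 140 Mb, all 4 HCAs were above all 9 livers, and these are the bins in which the liver of mouse 6240 was low. The share of all autosomal bins with such a separation was not counted, so it is not read as a trait of these bins. Without the HCA of mouse 2430, 10 bins were called. With normexp background correction 6 were called, and with female mice only 10. The share of all autosomal bins called was not counted for these alternative settings.

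HCC was called higher than liver in 0 of the 20 bins, where 7.03% of all autosomal bins were called higher. Differences were positive in all 20 bins, from 0.10 to 0.14, where the median over all autosomal bins was 0.01. Before adjustment 13 Chr1 bins were under 0.05 in the exact permutation test. The share of all autosomal bins under 0.05 before adjustment was not counted. The smallest adjusted p was 0.0581, in the bin at 170 to 180 Mb. Limma with and without the mouse as a replicate block also called 0 on Chr1. Over all autosomes it called 49 and 61 bins, in either direction. Without tumor 2 of mouse 6240 all 20 bins were called, without the liver of that mouse 10, and without the HCC of mouse 6487 6. With both HCCs of mouse 6240 averaged 17 were called. For these left-out and averaged samples, the share of all autosomal bins called was not counted. Neighbouring bins share a chromosome, so that these counts describe the extent of 1 change and not separate events.

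**Figure D5:**
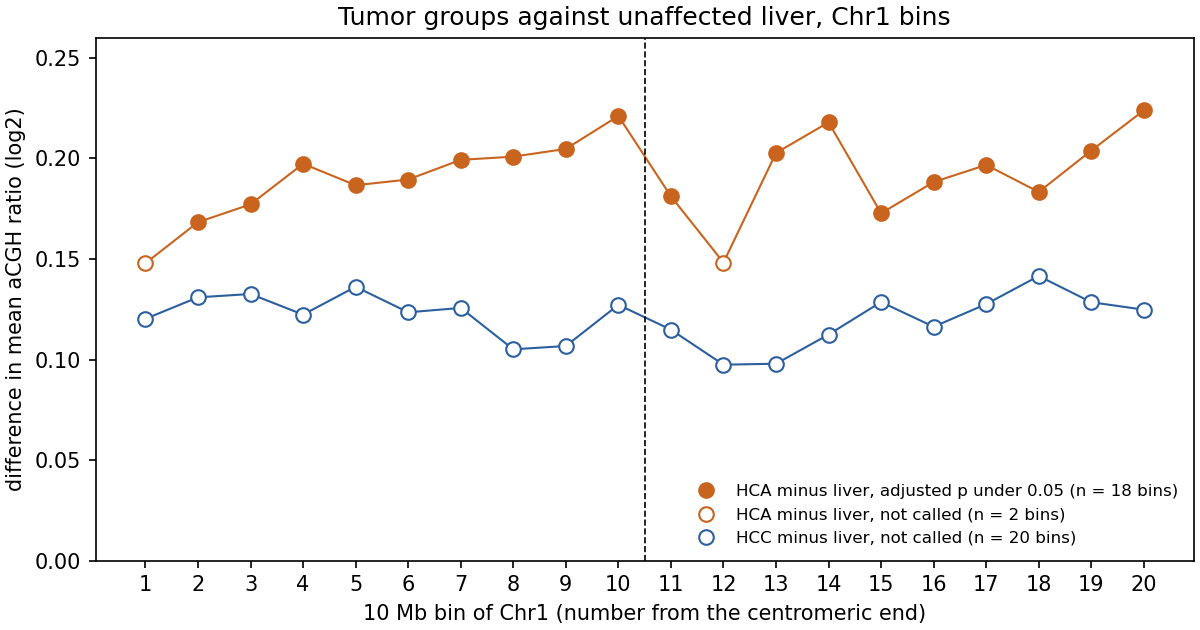
The difference in mean log2 aCGH ratio between a tumor group and the 9 unaffected livers (vertical axis) is plotted for each 10 Mb bin of Chr1 (horizontal axis, numbered from the centromeric end), with filled points where the adjusted p of the exact permutation test was under 0.05 and open points elsewhere. HCA lies at 0.15 to 0.22 with 18 filled points on both sides of the dashed split, and HCC lies below it at 0.10 to 0.14 with none filled.

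No break was found on Chr1. When windows of 20 neighbouring probes (median 174 kb on Chr1) were divided into segments of at least 10 windows, tumor minus own liver had 0 breaks with a step of at least 0.2 on Chr1 in all 10 tumors. Over all autosomes, 5.79% of the 190 pairs of an autosome and a tumor had such a break, 18 breaks in all. With steps of at least 0.1, Chr1 again had 0 breaks while 26 of the 190 pairs had at least 1. Chr1 minus own liver was itself under 0.2 in the HCAs of mice 5884, 5901 and 6199 (0.14, 0.12 and 0.16). It was also under 0.2 in HCC tumor 4 of mouse 6240 and in mice 6487, 6565 and 6642 (0.14, 0.04, 0.19 and 0.09). In these tumors a step from that level to no difference is too small to count at 0.2. In the HCCs of mice 6487 and 6642 it is too small at 0.1 as well. Segments of the tumor alone, with steps of at least 0.2, gave 0 breaks on Chr1 and 39 over all autosomes.

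Small departures from the level of Chr1 were few and none recurred. Of the 8110 values given by 811 Chr1 windows in 10 tumors, 8 were past 0.3 from the Chr1 median of the tumor after own liver was subtracted, that is 0.0986%, against 0.561% of all autosomal windows. Of these 8, 2 were higher and 6 were lower. In each of the 8 windows the other 9 tumors stayed within 0.24 of their Chr1 median. The largest departure was a drop of −0.68 in the HCC of mouse 6487 at chr1:166430638-166710373, where the tumor had a ratio of −0.65 and its liver −0.01. The same tumor had a second drop of −0.43 at chr1:173194249-173284355. In the HCA of mouse 5884 a window at chr1:30796821-31011690 departed by −0.46, with −0.10 in the tumor and 0.23 in the liver. The window of the HCC of mouse 6565 at chr1:182966593-183101918 departed by −0.39, with −0.10 in the tumor and 0.09 in the liver.

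The other 4 departures were between 0.30 and 0.33 in size. In the HCA of mouse 2430, the windows at chr1:123419549-123681365 and chr1:167656841-167773102 departed by −0.32 and −0.33 where the own liver was at 0.29 and 0.40 and the tumor at 0.48 and 0.58. The HCA of mouse 5884 departed by 0.31 at chr1:189842613-189997773, with 0.35 in the tumor and −0.10 in the liver. Tumor 4 of mouse 6240 departed by 0.30 at chr1:136883085-137016824, with 0.34 in the tumor and −0.10 in the liver. Over all of Chr1 that tumor was at 0.30 and its liver at 0.17, so most of this departure lay in the liver. Such windows hold 20 probes of 1 tumor each and have no replicate, so that they are given as values.

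Some Chr1 windows differed among the livers themselves. The SD over the 9 livers was above 0.2 in 2 Chr1 windows, 0.247% of them, against 0.904% of all autosomal windows. In the window at chr1:90101308-90217509 livers ranged from −0.57 to 0.49, and in that at chr1:173394067-173508510 from −0.36 to 0.34. In the first of these, tumors departed from their own liver by −0.10 to 0.06 after the Chr1 level was taken out, and in the second by −0.22 to 0.11. Both windows were chosen for their spread among livers, so the wide range between livers was set by the choice. Leaving out the 10% of probes that varied most between livers gave a Chr1 difference of 0.21 for HCA minus liver (adjusted p = 0.00483, exact permutation test) and 0.12 for HCC minus liver (adjusted p = 0.0603, exact permutation test).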

How the data were processed

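Per the labels and file headers, sample DNA was labeled with Cy5 and control liver DNA with Cy3, and hybridised to Agilent Mouse Genome CGH arrays. The deposited files hold log10 ratios and intensities (processed, spot and local background medians) written by Feature Extraction 10.5.1.1, with background subtraction and linear dye normalization by the authors, and in the deposited series table the log10 ratios are identical. Outlier spots were left out, spots of a probe were averaged, and each array's log2 ratios had their autosomal median subtracted. Signals were 1.84 to 4.95 (Cy5) and 3.06 to 4.89 (Cy3) times local background. Groups followed the labels. Tests were exact two-sided permutation tests of group means with Benjamini-Hochberg adjustment over all 19 autosomes, 38 chromosome parts or 256 bins, and a threshold of 0.05. The 95% intervals hold the shifts that this test did not reject. Samples of a group came from different mice, except 2 HCCs of mouse 6240. Tumor and liver of the same mouse were paired by animal, and the correlation of their deviations from group means over the 19 autosomes was −0.22 to 0.29. Reported tests did not use the pairing, and the paired fit was an alternative. For these tissue groups the study names ANOVA with Tukey comparisons and does not mention pairing. The number of arrays limits the precision.

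The alternatives concerned background correction of median signals (none, or normexp at offset 50), loess, centring, summaries, probe filters, scaling by the X ratio, scan day, pairing, mouse 6240, sex and single samples. The Chr1 ratio, distal minus proximal, the bin calls and the breaks were tested on simulated data with planted gains. No such test is given for the alternatives, the intervals or the single windows. The smallest gain that the tested steps detect was not determined. Members and lists were chosen with earlier results of these data known. The rule for naming genes (per list, those past the test or with the most probes) and 4 lists of Chr1 genes, for cell division, Trp53 and cancer, hepatocytes, and apoptosis and immunity, could not be used, because probes carry no gene names and no gene positions of the build were at hand. Python 3.11.15, numpy 2.4.6, pandas 2.3.3, R 4.3.3 and limma 3.58.1 were used.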

Additional observations from a re-analysis of the deposited data

Results flagged for a closer look

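In HCA, the tumor of mouse 2430 lay far from the other 3 in Chr1 ratio (0.52, the next 0.15), in the proximal part (0.52, the next 0.15) and in the distal part (0.52, the next 0.15). Among the unaffected livers, that of mouse 6240 lay far from the other 8 in the same 3 measures, with 0.17 (the next 0.06) for Chr1, 0.17 (the next 0.06) for the proximal part and 0.16 (the next 0.06) for the distal part. These are 6 of 12 groups examined, and chance alone gives about 1 in 20. The 3 measures share the same probes, so that they are 2 samples and not 6 separate events. Distal minus proximal had no such sample in any group.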

How the results depend on the processing

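HCA minus liver for Chr1 was positive under all 29 alternatives (0.098 to 0.25). It no longer passed with normexp (0.14, adjusted p = 0.0554) or with exact sign flips over mice, a replicate block (0.23, p = 0.125, the smallest possible). Leaving out 1 sample gave 0.098 to 0.23, the lowest without the HCA of mouse 2430. HCC minus liver was positive under all 33 alternatives (0.08 to 0.17). It passed with both HCCs of mouse 6240 averaged (0.13) and without that mouse (0.16), and leaving out 1 sample gave 0.094 to 0.17. HCC minus HCA never passed (−0.14 to 0.02, adjusted p at least 0.297). The Chr1 bins called in HCA numbered 6 with normexp, 10 with female mice, 37 of 40 with bins of 5 Mb, where more bins were tested, and 10 to 20 with 1 sample left out. In HCC they numbered 1 with the median of probes, 1 without the most variable probes, 17 with the HCCs of mouse 6240 averaged, 20 without that mouse, and 0 to 20 with 1 sample left out. For these bin counts the share over all autosomal bins was not counted. Apart from bin size and left-out samples, the cause of these changes was not tested. Distal minus proximal passed under no alternative (−0.0089 to 0.0092), a split at 130 Mb included (0.0092 in HCA, 0.0069 in HCC), and breaks on Chr1 stayed at 0. With the mouse as a replicate block, HCA minus liver was 0.23 and HCC minus liver 0.09, and distal minus proximal −0.0016 and 0.0034. With that block 17 and 0 Chr1 bins were called, against 18 and 0 in limma without the block. Over all autosomes, in either direction, 100 and 49 bins were called with the block and 115 and 61 without. That block moved neither group difference across the threshold, unlike the sign flips for HCA. The planned tests of single genes, and each of their alternatives, were not run, because the arrays name no genes.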
